A study of Mus musculus with 15 samples.

Results

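MΔGΔT is a form of the cardiac factor set Mef2c, Gata4 and Tbx5 that was given by retrovirus to fibroblasts of mouse embryos (MEF), the cells that make connective tissue. Its 5 libraries were compared here with the 5 libraries of the MEF group, chosen by their titles. These are 10 of the 15 libraries of the series, and the comparison covers all 14091 listed features. The other 5 libraries hold fibroblasts given a second set, MGT, and are used only where a direct difference between the sets is stated. All cells were of the ICR strain, and cells given virus were harvested 1 week later. The MEF group is labelled only as MEF, with no mention of an empty vector, so effects of the virus and of the factors cannot be told apart. No harvest time is given for the MEF group, so a difference in time in culture cannot be told apart from these effects either. What Δ stands for is not defined in the labels, and the series title speaks only of engineered effector domains of Mef2c and Gata4. They also do not say whether the replicates were separate cultures, so p-values measure the spread between these libraries, which may be technical. RNA was taken from whole cultures, in which fewer cells of a type and less RNA per cell cannot be told apart.

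MEF2C, GATA4 and TBX5 are DNA-binding transcription factors of the embryonic heart. MEF2C belongs to the MADS-box family and binds an A/T-rich box, GATA4 is a zinc finger factor and TBX5 a T-box factor. Together they can move fibroblasts toward a cardiac muscle state, in which genes of the sarcomere, the repeating contractile unit of muscle, become active while genes of the fibroblast matrix become less active. MEF2 proteins often act with serum response factor (SRF), a related MADS-box protein that binds the CArG box, and with its coactivator myocardin.

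The counts of a library summed to 8.21 to 10.4 M in MEF and to 9.57 to 10.6 M in MΔGΔT (M, mega). Of the 13328 features with enough counts to be tested, 4820 (36.2%) were higher and 4818 (36.1%) lower in MΔGΔT than in MEF at an adjusted p under 0.05 by edgeR's quasi-likelihood test with Benjamini-Hochberg adjustment. RPKM, reads per kilobase of gene and mega-read, imply library totals of their own. With these in place of TMM factors, the split was 2925 higher and 7184 lower. The words rose and fell are used only for genes past this threshold, every adjusted p is from this test, and amounts of a rise or fall are log2 fold changes, with the SE where one is given (n = 5 and 5). With 72.3% of features called, counts of called genes in a group are read against these shares. A higher level by at least 2-fold held for 1424 features (10.7%) and a lower one for 1630 (12.2%). The biological coefficient of variation was 6.54% among the MEF libraries, 3.42% among the MΔGΔT libraries and 4.86% over all 15. The 5 and 5 libraries did not overlap for 7795 features (58.5%). MEF replicate 1 differed more from its group than the rest, with a chi-square of 4.67 to 7.43 per degree of freedom in its pairs against at most 4.04 in the remaining pairs. Without it 4821 features were higher and 4796 lower.

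Levels of the delivered factors bear on whether the MEF and MΔGΔT libraries were swapped with one another. Levels in MGT are not given here, so the values do not tell MΔGΔT libraries from MGT libraries. The gene Mef2c (chromosome 13, 83504034 to 83667080, mm10) was at 59.3, 60.8, 59.8, 57.8 and 59.9 CPM in the 5 MEF libraries and 638, 647, 619, 647 and 591 CPM in the 5 MΔGΔT libraries. Gata4 (chromosome 14, 63198922 to 63271692, mm10) stood at 3.13, 1.92, 2.57, 1.93 and 2.79 CPM in the 5 MEF libraries and 191, 196, 187, 192 and 191 CPM in the 5 MΔGΔT libraries. Tbx5 (chromosome 5, 119832668 to 119885219, mm10) stood at 5.36, 4.02, 4.25, 3.74 and 4.46 CPM in the 5 MEF libraries and 172, 173, 177, 181 and 169 CPM in the 5 MΔGΔT libraries. Every MΔGΔT library lay above every MEF library for all 3 genes, and Mef2c was the only one of them well counted in MEF. Mef2c rose by 3.40 ± 0.044 (adjusted p = 2.7e-40), Gata4 by 6.27 ± 0.082 (adjusted p = 8e-40) and Tbx5 by 5.31 ± 0.069 (adjusted p = 2.6e-40). Transcripts of the virus and of the cell cannot be separated in these counts, and a stretch missing from a Δ construct would not be counted.

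Promoter sequences of the largest rises are shown first, because MEF2 and SRF are known to act through short boxes near muscle promoters. For 38 of the 50 genes with the largest rises, RefSeq (GRCm38.p6) gave a window of 250 bases before to 50 after the start, and the first listed window was used. The windows were searched on both strands for the MEF2 box and the CArG box, and 11 genes held one of them. Each stretch below is printed 5′ to 3′ on the strand of its gene, with the box in capitals and up to 25 bases on either side. The first 3 hold a CArG box and the other 8 a MEF2 box.
Actc1 (chr2:114052888-114052947, GRCm38.p6, minus strand): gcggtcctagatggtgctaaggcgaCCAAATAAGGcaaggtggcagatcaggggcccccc
Myl7 (chr11:5898809-5898868, GRCm38.p6, minus strand): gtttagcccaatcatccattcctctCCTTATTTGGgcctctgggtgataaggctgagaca
Ldb3 (chr14:34588682-34588741, GRCm38.p6, minus strand): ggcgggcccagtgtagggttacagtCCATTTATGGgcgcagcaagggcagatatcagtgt
Myoz2 (chr3:123034988-123035045, GRCm38.p6, minus strand): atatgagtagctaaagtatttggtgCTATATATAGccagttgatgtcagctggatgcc
Ttn (chr2:76982679-76982738, GRCm38.p6, minus strand): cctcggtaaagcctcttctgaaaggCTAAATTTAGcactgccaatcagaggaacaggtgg
Xirp2 (chr2:67445903-67445962, GRCm38.p6, plus strand): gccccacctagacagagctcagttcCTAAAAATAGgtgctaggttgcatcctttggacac
Synpo2l (chr14:20668429-20668488, GRCm38.p6, minus strand): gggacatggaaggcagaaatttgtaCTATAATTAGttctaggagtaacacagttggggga
Mybpc3 (chr2:91118029-91118088, GRCm38.p6, plus strand): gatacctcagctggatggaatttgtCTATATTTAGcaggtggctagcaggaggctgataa
Casq2 (chr3:102086321-102086380, GRCm38.p6, plus strand): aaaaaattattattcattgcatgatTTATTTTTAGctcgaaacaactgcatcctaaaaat
Mylk4 (chr13:32784033-32784092, GRCm38.p6, minus strand): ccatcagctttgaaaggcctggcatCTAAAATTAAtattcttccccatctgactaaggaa
Arr3 (chrX:100605401-100605460, GRCm38.p6, plus strand): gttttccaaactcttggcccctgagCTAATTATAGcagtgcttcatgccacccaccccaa
These genes encode cardiac actin (Actc1), the atrial myosin light chain (Myl7), Z-disc proteins (Ldb3, Myoz2, Synpo2l), titin (Ttn), an actin-binding repeat protein (Xirp2), cardiac myosin binding protein C (Mybpc3), calsequestrin (Casq2), a myosin light chain kinase family member (Mylk4) and a cone arrestin of the retina (Arr3). The boxes ended between 24 and 157 bases before the start. A MEF2 box stood in 8 of the 38 windows (21.1%), against 1 of 34 windows of the 50 largest falls (2.94%) and 1.7% of 10175 windows of tested genes (3.26% of all 27025 windows of the table). The CArG box stood in 3 of 38 (7.89%), in 0 of the 34 windows of the falls and in 1.29% of tested genes (1.57% of all). In the same order of rises, falls, tested genes and all windows, the TEAD motif CATTCC stood in 26.3%, 5.88%, 12% and 14.6%, and the E-box CANNTG in 81.6%, 67.6%, 62.9% and 72.1%. The GATA motif AGATAA stood in 13.2%, 11.8%, 5.96% and 11.4%, and the T-box motif GGTGTG in 26.3%, 17.6%, 17.1% and 19%. The TATA box TATAAA, which can overlap a MEF2 box, stood in 21.1% of the rises and 23.5% of the falls, against 6.99% of tested genes and 14.2% of all windows. A match describes letters in the window and no binding was measured, and genes of the rises were picked by their fold change.

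**Figure D1:**
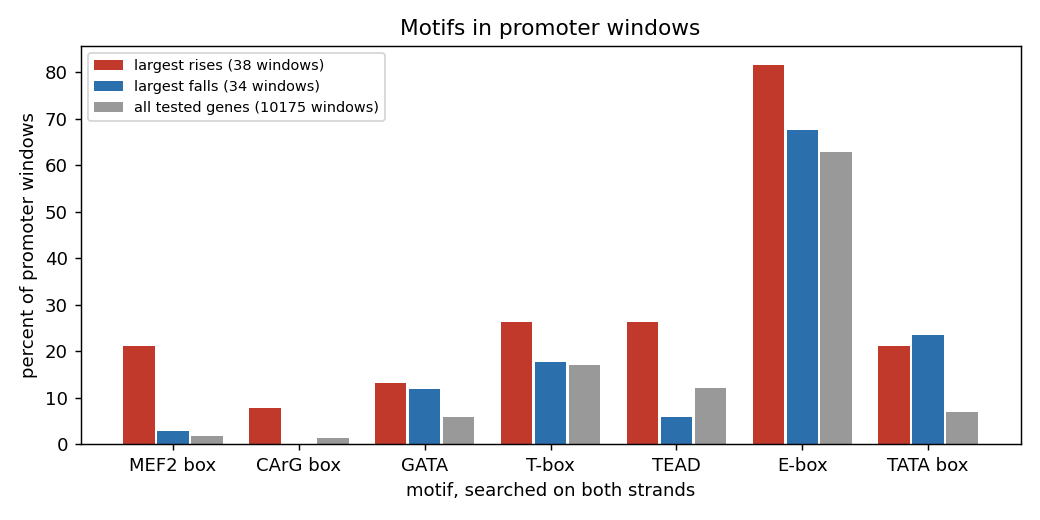
Share of promoter windows (percent of windows, axis from 0) that hold each motif on either strand, for the 50 largest rises (38 windows), the 50 largest falls (34 windows) and all tested genes (10175 windows). The MEF2 box stood in 21.1% of windows of the rises against 2.94% and 1.7%, while TATAAA was about as frequent in rises and falls.

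Among the largest rises were muscle genes with almost no counts in MEF. In all, 78 features had at most 3 counts over the 5 MEF libraries together and a mean of at least 1 CPM (counts per mega-count of the TMM-adjusted library) in MΔGΔT, and 27 features showed the reverse. By at least 16-fold, 218 features were higher and 100 lower. Cardiac actin, Actc1 (chromosome 2, 114047282 to 114053548, mm10), had 1 count over all MEF libraries and stood at 1570, 1560, 1570, 1600 and 1580 CPM in the 5 MΔGΔT libraries. No MEF library came near these levels (ratio 73300, 95% interval 13200 to 2900000, where the interval covers counting error only). Ttn (chromosome 2, 76703980 to 76982547, mm10), the gene of the elastic filament titin, stood at 2.32, 1.82, 2.69, 2.41 and 3.46 CPM in the 5 MEF libraries and 6620, 5970, 5910, 6990 and 5710 CPM in the 5 MΔGΔT libraries. Every MΔGΔT library stood far above every MEF library, and the log2 fold change was 11.27 ± 0.13 (adjusted p = 4.6e-18). In mean level Ttn gained the third largest number of CPM of all genes, after Nid2 and Thbs1.

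**Figure D2:**
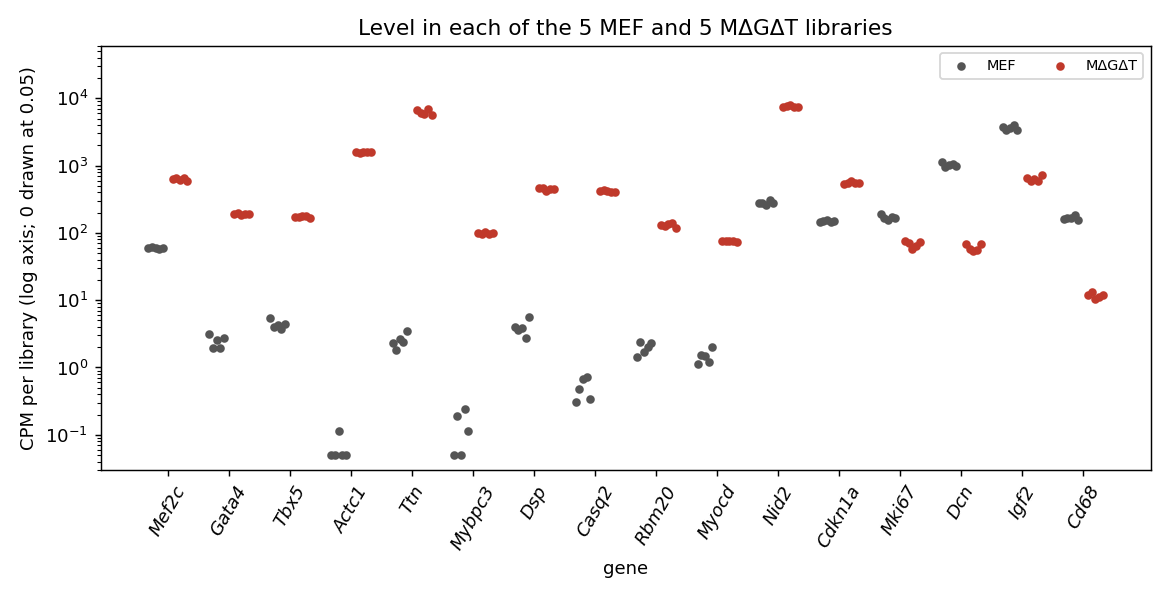
CPM per library (log axis) for 16 genes in the 5 MEF libraries and the 5 MΔGΔT libraries, each point 1 library; libraries with 0 counts are drawn at 0.05 CPM. The groups do not overlap for any gene shown, with Ttn between 1.82 and 3.46 CPM in MEF and between 5710 and 6990 in MΔGΔT. Over all tested features the groups do not overlap for 58.5%.

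In the thick filament, which holds myosin and its partners, 10 of 12 tested genes rose and 1 fell, with a median of 9.44 on the log2 scale. The median was 8.15 when genes without a MEF count took their lower bound. Over all tested features 36.2% rose and 36.1% fell, with a median of -0.01. In the thick filament list, 9 genes had at most 3 counts over the 5 MEF libraries together. Such genes had almost no room to fall, so the list is not fully comparable with these shares. This limit also holds, for fewer genes, in other muscle lists below. Such genes numbered 2 each in the thin filament, sarcomere assembly and sarcoplasmic reticulum lists, and 3 each in the intercalated disc and channel lists. Cardiac myosin binding protein C, Mybpc3 (chromosome 2, 91118144 to 91136516, mm10), stood at 0, 0.192, 0, 0.241 and 0.112 CPM in the 5 MEF libraries and 100, 97.7, 102, 96 and 100 CPM in the 5 MΔGΔT libraries. The MEF libraries held 0 to 2 counts each, all MΔGΔT libraries lay close together near 100 CPM, and the log2 fold change was 9.69 ± 0.16 (adjusted p = 6.5e-37). The light chain of embryonic and atrial muscle Myl4 rose by 9.64 ± 0.062 (adjusted p = 2.7e-50) and the smooth muscle and non-muscle light chain Myl9 by 2.72 ± 0.049 (adjusted p = 9.7e-31). The cardiac heavy chain Myh6 had 2 counts over the MEF libraries (ratio 8870, 95% interval 2460 to 73300), and its slow relative Myh7 was at least 193-fold higher. The gene that fell was the perinatal heavy chain Myh8 (-2.35 ± 0.14, adjusted p = 2.2e-18). Myosin heavy chains, actins (Actc1, Acta2) and tropomyosins share stretches of sequence, and whether counting used strand is not given in the sources used here, so single values of such genes are less certain.

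In the thin filament, the actin cable with troponin and tropomyosin, 17 of 18 genes rose and 1 fell (median 3.91). Tnnc1, the calcium sensor of the cardiac thin filament, went from 0.409 ± 0.165 to 109 ± 5.19 CPM (log2 fold change 8.01 ± 0.12, adjusted p = 4.8e-38). The tropomyosins Tpm1 and Tpm2 were already well counted in MEF and rose by 1.94 ± 0.033 (adjusted p = 2.1e-36) and 2.70 ± 0.05 (adjusted p = 1.7e-32). The inhibitory troponin Tnni3 stayed low, at 4.97 ± 0.677 CPM against 0.311 ± 0.169 (3.89 ± 0.26, adjusted p = 1.7e-16). Nebl, a nebulin relative, was the gene that fell (-0.42 ± 0.15, adjusted p = 0.0119). For the Z-disc, which anchors the filaments, a list of Z-disc and titin-associated genes had 30 of 31 higher and 0 lower (median 5.03). The list also holds M-band genes and the intermediate filament gene desmin (Des). Of its genes, 9 had at most 3 counts over the 5 MEF libraries together and so almost no room to fall. Synpo2l went from 0.416 ± 0.166 to 421 ± 15.2 CPM (9.97 ± 0.091, adjusted p = 2e-45) and the M-band proteins Myom1 and Myom2 rose by 6.85 ± 0.066 (adjusted p = 8.7e-45) and 10.53 ± 0.091 (adjusted p = 1.2e-43). Myoz2 was at least 545-fold higher, Csrp3, a muscle LIM protein, at least 381-fold, and Xirp2 rose from 1 count over the MEF libraries (ratio 2510, 95% interval 449 to 99000).

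Per unit length, the highest members of the muscle structure lists in MΔGΔT were Actc1 at 815 ± 17.1, Myl7 at 619 ± 33 and Myl9 at 312 ± 16 RPKM as deposited by the authors (mean ± SD, n = 5). Tpm4, Vcl (vinculin), Myl4, Tpm1, Tnnt2, Cryab (a small heat shock protein) and Ankrd1 followed with means between 126 and 247 RPKM. On the same scale Ttn stood at 40.8 ± 2.29 and Mybpc3 at 13.1 ± 0.72 RPKM. The collagen Col1a1, a major fibroblast product, still stood above Actc1 in the same libraries, at 975 ± 62.9 RPKM.

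Genes that build and maintain sarcomeres moved with the structural genes. Of 19 assembly factors and chaperones, 17 rose and 1 fell (median 4.29). The formin Fhod3, which helps to assemble sarcomeric actin, rose by 5.45 ± 0.052 (adjusted p = 7.3e-45), the heart-enriched small heat shock protein Hspb7 by 6.27 ± 0.077 (adjusted p = 4.5e-41), and the muscle methyltransferase Smyd1 by 7.69 ± 0.25 (adjusted p = 5.7e-27). Smyd1 had only 4 counts in MEF, and its value was 8.99 without MEF replicate 1. The myosin chaperone Unc45b rose by 4.29 ± 0.25 (adjusted p = 1.6e-18), and the calcyclin-binding protein Cacybp fell (-0.34 ± 0.066, adjusted p = 2e-05). Of 13 splicing regulators 9 rose and 2 fell (median 0.46; 7 and 5, median 0.22, with RPKM-implied totals). Rbm20, which controls the splicing of titin (chromosome 19, 53677306 to 53867080, mm10), stood at 1.42, 2.4, 1.68, 2.05 and 2.34 CPM in the 5 MEF libraries and 130, 128, 134, 140 and 120 CPM in the 5 MΔGΔT libraries. The groups were far apart, with a log2 fold change of 6.03 ± 0.088 (adjusted p = 1.2e-38). Rbm24 rose by 3.27 ± 0.22 (adjusted p = 1.6e-16), Celf1 and Qk by 0.81 and 0.78, while Mbnl1 and Ptbp1, a repressor of muscle exons, fell (-0.19 and -0.16).

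Genes of cell junctions and membrane anchors also rose for the most part. Of 17 genes of the intercalated disc, which couples heart muscle cells end to end, 14 rose and 3 fell (median 1.99). Desmoplakin, Dsp (chromosome 13, 38151294 to 38198577, mm10), the link between desmosomes and intermediate filaments, stood at 4.04, 3.64, 3.92, 2.78 and 5.58 CPM in the 5 MEF libraries and 470, 464, 425, 455 and 456 CPM in the 5 MΔGΔT libraries. All MΔGΔT libraries lay above 400 CPM while no MEF library passed 6, a log2 fold change of 6.82 ± 0.071 (adjusted p = 1e-39). Desmin (Des), plakoglobin (Jup), Tjp1 and N-cadherin (Cdh2) rose by 5.64, 2.08, 1.81 and 1.74. The genes that fell were beta-catenin (Ctnnb1, -0.36 ± 0.036, adjusted p = 1.5e-11) and the connexins Gjc1 (-0.61 ± 0.077, adjusted p = 4.8e-09) and Gja1 (-0.15 ± 0.04, adjusted p = 0.00128). Gja1, the main connexin of working heart muscle, was thus at 340 ± 21.3 CPM against 377 ± 4.89 in MEF. Among 23 costamere genes, which tie the sarcomere to the membrane, 15 rose and 3 fell (median 0.55; 14 and 7, median 0.31, with RPKM-implied totals). Dystrophin (Dmd) rose by 3.85 ± 0.064 (adjusted p = 3.5e-27), its homologue Utrn by 2.17 ± 0.037 (adjusted p = 1.6e-36) and dystroglycan (Dag1) by 1.42 ± 0.03 (adjusted p = 3.9e-33). The syntrophin Sntb2 (-1.55 ± 0.041, adjusted p = 9.8e-30), Parvb (-1.96 ± 0.087, adjusted p = 3.1e-22) and Ank3 (-0.35 ± 0.073, adjusted p = 5e-05) fell.

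Calcium storage genes rose, and membrane channels went both ways. Of 23 genes of the sarcoplasmic reticulum, the calcium store of muscle, 18 rose and 4 fell (median 2.71). Calsequestrin, Casq2 (chromosome 3, 102086415 to 102146514, mm10), stood at 0.303, 0.479, 0.672, 0.724 and 0.335 CPM in the 5 MEF libraries and 417, 431, 422, 410 and 402 CPM in the 5 MΔGΔT libraries. No MEF library reached 1 CPM, and the log2 fold change was 9.68 ± 0.085 (adjusted p = 6.9e-46). The junction protein Jph2 rose by 4.46 ± 0.059 (adjusted p = 3.8e-40) and Cmya5 by 2.71 ± 0.069 (adjusted p = 4.1e-30), and triadin (Trdn), with no count in MEF, was at least 119-fold higher. In the other direction, the third ryanodine receptor Ryr3 fell from 14.3 ± 2.25 to 5.02 ± 0.93 CPM (-1.51 ± 0.12, adjusted p = 6.1e-14), and the pump gene Atp2a3 (-1.60 ± 0.21, adjusted p = 1.7e-07), Asph (-0.17 ± 0.039, adjusted p = 0.00015) and the calcium sensor S100a1 (-0.34 ± 0.081, adjusted p = 0.00028) also fell. Of 31 channels and exchangers, 16 rose and 9 fell (median 0.73). The potassium channel Kcnc4 had 2 counts over the MEF libraries and stood at 368, 355, 357, 375 and 356 CPM in the 5 MΔGΔT libraries (ratio 8420, 95% interval 2330 to 69600). The sodium-calcium exchanger Slc8a1 rose by 2.08 ± 0.055 (adjusted p = 2.6e-28). Hcn4, the main pacemaker channel of the sinus node, reached 8.4 ± 1.51 CPM (3.50 ± 0.22, adjusted p = 4.9e-17). The T-type calcium channel Cacna1g fell from 112 ± 6.84 to 29.8 ± 3.37 CPM, and Cacnb2 also fell (-1.64).

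Regulators of muscle genes both rose and fell. Of 36 cardiac transcription factors and cofactors, 17 were higher and 14 lower (median 0.13). These are 47.2% and 38.9%, beside 36.2% and 36.1% over all tested features. With RPKM-implied totals both counts were 16 and the median -0.11. Myocardin, Myocd (chromosome 11, 65176561 to 65269989, mm10), the coactivator of SRF, stood at 1.11, 1.53, 1.46, 1.21 and 2.01 CPM in the 5 MEF libraries and 75.9, 75.9, 76.6, 75.2 and 73.3 CPM in the 5 MΔGΔT libraries. No library of either group lay near the other group (log2 fold change 5.68 ± 0.098, adjusted p = 3.7e-36). Tbx20 rose by 2.19 ± 0.2 (adjusted p = 2.2e-12). Smarcd3, the heart-enriched subunit of the BAF remodelling complex, rose by 2.36 ± 0.07 (adjusted p = 3.7e-28), as did the deacetylases Hdac9 (1.36 ± 0.093, adjusted p = 4e-16) and Hdac5 (0.78 ± 0.045, adjusted p = 1.1e-18), which are known to repress MEF2. Over 50 chromatin regulators, 21 rose and 17 fell (42% and 34%, near the shares over all features), against 11 and 28 with RPKM-implied totals. The Iroquois factors Irx1 and Irx2 fell (-2.55 and -1.42), as did the Notch targets Hey1 and Hey2 (-2.66 and -3.27). Hand2, used in other cardiac factor sets, was at 1.64 ± 0.683 CPM against 2.39 ± 0.412 (-0.56 ± 0.25, adjusted p = 0.0472), a call that was lost with DESeq2 (adjusted p = 0.0679) and on leaving out any of 3 MEF or 3 MΔGΔT libraries (MEF replicates 1, 3 and 4, MΔGΔT replicates 2, 3 and 4), where the value lay between -0.57 and -0.43. Of 8 tested genes from a list of 26 regulators, synapse genes and other genes of skeletal muscle, 6 rose and 2 fell (median 0.70; 4 and 3, median 0.14, with RPKM-implied totals). The rises include desmin (Des), a structural gene that the Z-disc, intercalated disc and smooth muscle lists hold too. Ache, acetylcholinesterase, rose by 5.98 ± 0.24 (adjusted p = 5.6e-24) and Six4 by 1.02 ± 0.071 (adjusted p = 5.2e-16), and the cofactors Eya1 and Eya4 fell (-0.92 and -0.98).

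Genes that respond to stretch and to SRF rose for the most part. Of 18 natriuretic and stretch genes, 16 rose and 2 fell (median 3.37). In this list 4 genes had at most 3 counts over the 5 MEF libraries together and so almost no room to fall. The natriuretic peptide gene Nppa (chromosome 4, 148000722 to 148002079, mm10) stood at 0.101, 0.287, 0, 0 and 0.112 CPM in the 5 MEF libraries and 12.3, 11.4, 10.9, 13.7 and 12.2 CPM in the 5 MΔGΔT libraries. The groups did not overlap, but the level was low beside the filament genes, with a log2 fold change of 6.66 ± 0.26 (adjusted p = 5e-24), or 7.47 without MEF replicate 2. Nppb reached 4.04 ± 0.783 CPM (4.64 ± 0.34, adjusted p = 2.3e-15). Corin, the protease that activates these peptides, rose from 0.164 ± 0.142 to 120 ± 9.68 CPM (9.35 ± 0.15, adjusted p = 5.9e-32), while their clearance receptor Npr3 fell (-1.09 ± 0.071, adjusted p = 4.8e-16). Fhl1 and Lmcd1, LIM proteins, rose by 2.50 and 2.63. Of 28 smooth muscle and SRF targets, 23 rose and 5 fell (median 1.44), the latter including Tagln2, Hexim1, Aoc3 and Smtn, which had log2 fold changes of -0.36 to -1.56. Of 30 early targets of the mechanosensitive factors YAP and MRTF, 22 rose and 4 fell (median 0.49; 16 and 9, median 0.26, with RPKM-implied totals). Ctgf rose by 2.81 ± 0.038 (adjusted p = 1.4e-39), Ankrd1, which both lists hold, by 7.05 ± 0.078 (adjusted p = 1.5e-39), and the ectonucleotidase Nt5e by 3.11 ± 0.05 (adjusted p = 2.8e-37). Tissue factor (F3) and Igfbp3 of the same list fell (-2.33 and -2.41).

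**Figure D3:**
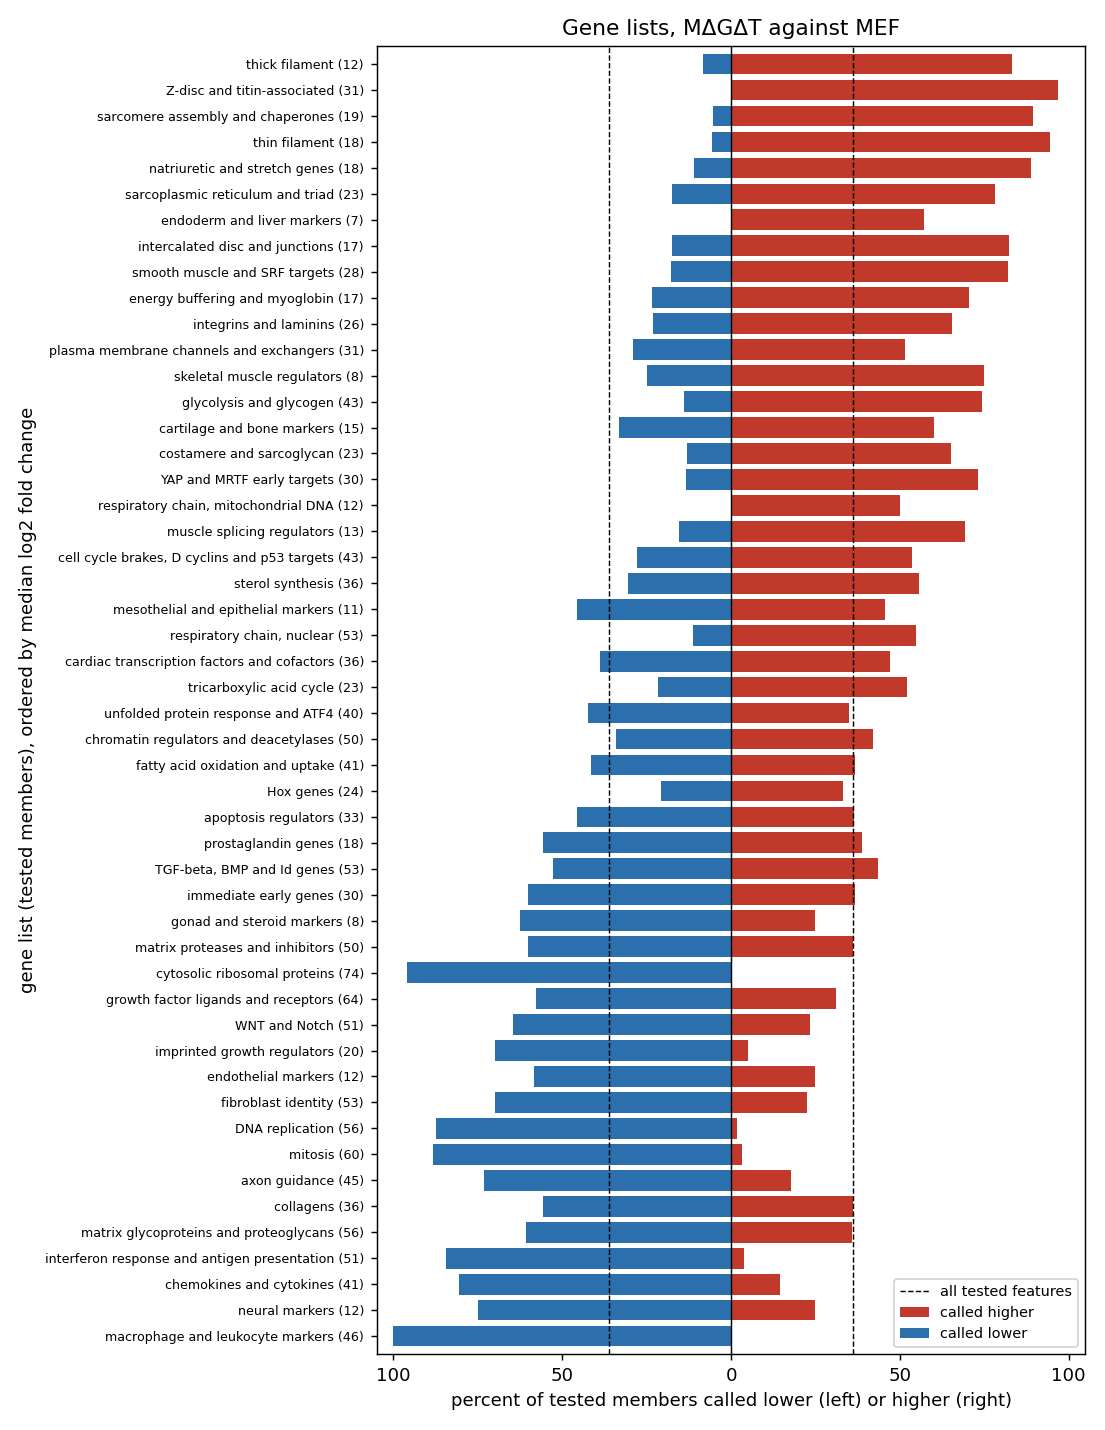
Percent of tested members of each of the 50 gene lists called higher (to the right) and lower (to the left) in MΔGΔT than in MEF; the vertical lines mark the shares over all 13328 tested features, 36.2% higher and 36.1% lower. Filament, Z-disc and assembly lists lie far to the right of the line, and the macrophage, ribosomal protein, mitosis, replication and interferon lists far to the left.

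Muscle forms of metabolic enzymes rose within a moderate general shift. Of 17 genes of energy buffering, 12 rose and 4 fell (median 1.04). The muscle enolase Eno3 (chromosome 11, 70657202 to 70662513, mm10) stood at 5.26, 5.75, 6.72, 7.49 and 6.92 CPM in the 5 MEF libraries and 369, 345, 354, 364 and 365 CPM in the 5 MΔGΔT libraries. Its groups were separated by more than the whole range within either (log2 fold change 5.82 ± 0.06, adjusted p = 8e-44). The muscle phosphoglycerate mutase Pgam2 rose by 3.94 ± 0.15 (adjusted p = 7.4e-25), the muscle glycogen phosphorylase Pygm by 4.14 ± 0.15 (adjusted p = 7.5e-25) and the orphan receptor Esrrg by 3.32 ± 0.11 (adjusted p = 9.6e-27). Myoglobin (Mb) had 1 count over the MEF libraries (ratio 567, 95% interval 101 to 22400). The brain creatine kinase Ckb and the coactivator Ppargc1a, known to drive mitochondrial genes, fell (-0.78 and -1.36).

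Of 43 genes of glycolysis and glycogen, 32 rose and 6 fell (median 0.65), among them hexokinase Hk2 (2.14 ± 0.048, adjusted p = 2e-32), Pfkp (1.68 ± 0.043, adjusted p = 2.2e-30) and Pdk4, which restrains pyruvate entry into mitochondria (3.29 ± 0.077, adjusted p = 6.8e-29). The brain aldolase Aldoc fell (-2.09). Fatty acid genes had 15 higher and 17 lower of 41 (median 0; 9 and 23, median -0.23, with RPKM-implied totals). Acadl, a dehydrogenase of fatty acid oxidation, rose by 1.95 ± 0.04 (adjusted p = 1.7e-33) and Acsl1 by 1.86 ± 0.057 (adjusted p = 1.3e-27), while the uptake receptor Cd36 fell (-3.98), as did the lipid droplet protein Plin2 (-1.34). Cd36 is also made by macrophages, whose markers fell as described further on. Nuclear genes of the respiratory chain moved by small amounts, with 29 of 53 higher and 6 lower (median 0.16), a direction that turned with RPKM-implied totals (6 higher, 20 lower, median -0.08). The same scaling turned the 23 genes of the tricarboxylic acid cycle from 12 higher and 5 lower to 4 and 11. Of 12 genes of the mitochondrial genome, 6 rose and 0 fell (median 0.46), against 2 and 1 with RPKM-implied totals. Cytosolic ribosomal protein genes went the other way, with 71 of 74 lower and 0 higher (median -0.55), and their share of all counts went from 1.59 to 1.96% in MEF to 1.05 to 1.12% in MΔGΔT. Sterol synthesis genes had 20 higher and 11 lower of 36 (14 and 15 with RPKM-implied totals). Genes of the unfolded protein response had 14 higher and 17 lower of 40 (4 and 27, median -0.24, with RPKM-implied totals).

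The matrix changed in composition. Many interstitial matrix genes, which fibroblasts secrete in quantity, fell, while other matrix genes rose. Of collagens 36.1% rose and of matrix glycoproteins and proteoglycans 35.7%, about the 36.2% found over all tested features. Falls were more frequent than over all features, at 55.6% and 60.7% against 36.1%. Of 36 collagens, 20 fell and 13 rose (median -0.93; 23 and 9 with RPKM-implied totals), and their share of all counts went from 6.91 to 8% in MEF to 3.6 to 3.78% in MΔGΔT. Of 56 matrix glycoproteins and proteoglycans, 34 fell and 20 rose (median -0.95). Decorin, Dcn (chromosome 10, 97479609 to 97518143, mm10), a small proteoglycan that binds collagen fibrils, stood at 1140, 969, 1020, 1050 and 973 CPM in the 5 MEF libraries and 69.2, 57.8, 54, 55 and 67.9 CPM in the 5 MΔGΔT libraries. No library of MΔGΔT came near the lowest MEF library (log2 fold change -4.09 ± 0.099, adjusted p = 4.6e-14). Elastin (Eln) fell from 2910 ± 298 to 279 ± 42.3 CPM (-3.39 ± 0.14, adjusted p = 4.3e-11), and the fibrillin Fbn1, the thrombospondin Thbs2 and Col6a2 fell (-1.83, -1.75 and -2.07). Nidogen 2, Nid2 (chromosome 14, 19751265 to 19811787, mm10), which links laminin to collagen IV, stood at 277, 280, 264, 304 and 280 CPM in the 5 MEF libraries and 7500, 7680, 7890, 7450 and 7310 CPM in the 5 MΔGΔT libraries. It was higher in every MΔGΔT library by more than 20-fold, with a log2 fold change of 4.75 ± 0.039 (adjusted p = 1e-46). Thrombospondin 1, Thbs1, rose from 5780 ± 189 to 12800 ± 511 CPM (1.15 ± 0.031, adjusted p = 1.3e-29), Col12a1 from 4410 ± 193 to 8430 ± 247 (0.94 ± 0.033, adjusted p = 1.9e-25), and the TGF-beta binding protein Ltbp1 by 2.49 ± 0.034 (adjusted p = 8.9e-40). Col22a1, a collagen of muscle junctions, rose by 6.32 ± 0.17 (adjusted p = 1.1e-29), and the basement membrane collagen Col4a3 by 4.04 ± 0.21 (adjusted p = 9.1e-20).

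Of 26 integrins and laminins, which attach cells to basement membranes, 17 rose and 6 fell (median 0.95). Itga7, the laminin receptor of muscle, rose by 3.93 ± 0.046 (adjusted p = 1.1e-41), Itga8 by 2.63 ± 0.037 (adjusted p = 2.5e-39), Itga3 by 3.41 ± 0.064 (adjusted p = 4.3e-35), and Lama2, the laminin chain of muscle basement membrane, by 2.60 ± 0.04 (adjusted p = 3.7e-37). Lama4, Lama1, the fibrillar collagen receptor Itga11 and Itgb8 fell (-1.13 to -1.64). Among 50 matrix proteases and their inhibitors, 30 fell and 18 rose (median -0.48). The inhibitor Serpine2, which blocks plasminogen activators, rose by 1.93 ± 0.037 (adjusted p = 1.7e-34), and the membrane protease Mmp15 by 3.93 ± 0.072 (adjusted p = 3.1e-35). Adamts15 fell (-3.14), as did the lysosomal protease Ctsb, also abundant in macrophages (-1.84).

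**Figure D4:**
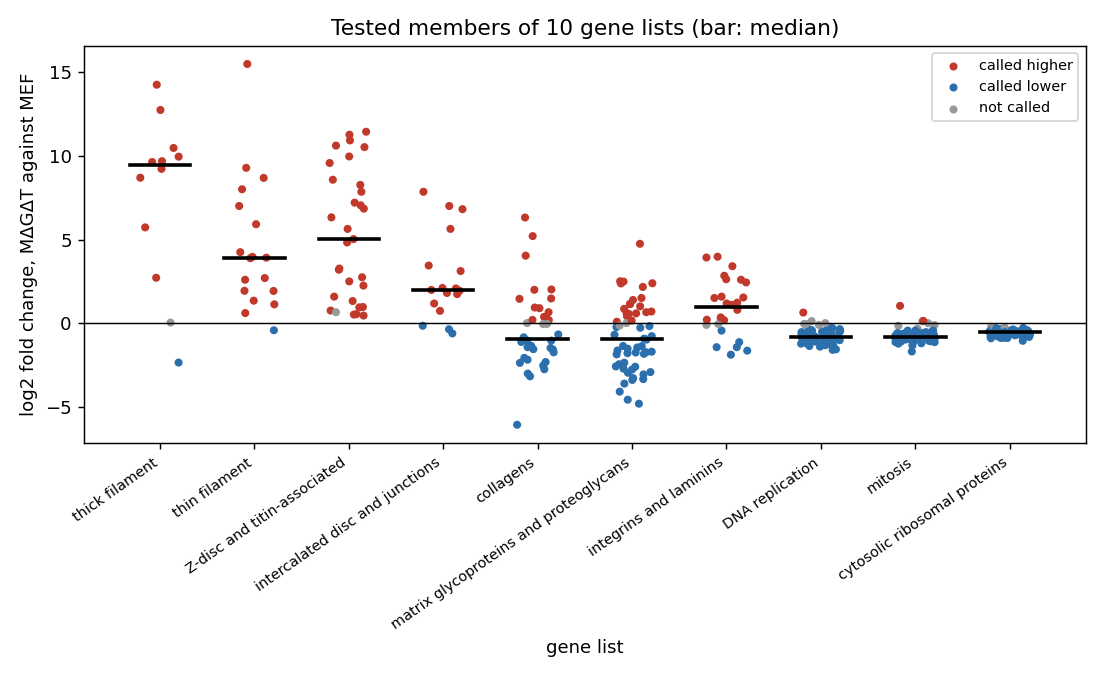
Log2 fold change (MΔGΔT against MEF) of every tested member of 10 gene lists, each point 1 gene, with the list median as a bar and 0 as a line. Filament lists spread far above 0, collagens and matrix glycoproteins hold both large rises and large falls, and most replication, mitosis and ribosomal protein genes lie below 0.

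Genes that mark fibroblasts fell for the most part, with exceptions. Of 53 such genes, 37 fell and 12 rose (median -0.76). Their share of all counts still went up, from 0.856 to 0.893% in MEF to 1.02 to 1.09% in MΔGΔT. The list holds vimentin (Vim), which is among the 10 genes that gained the most CPM. The share therefore does not follow most members. The growth factor receptors Pdgfra and Pdgfrb fell (-2.47 and -1.09), as did the surface protein Cd248 (-2.56), the protease Fap (-3.05) and the mesenchymal factor Twist2 (-1.16). Thy1, a surface marker often used to sort fibroblasts (chromosome 9, 44043384 to 44048579, mm10), stood at 225, 173, 209, 202 and 190 CPM in the 5 MEF libraries and 297, 290, 316, 300 and 297 CPM in the 5 MΔGΔT libraries. It was higher in every MΔGΔT library than in any MEF library (log2 fold change 0.59 ± 0.046, adjusted p = 1.8e-13). The intermediate filament vimentin (Vim), Runx1, Zeb1 and Shox2 rose by 1.69, 1.48, 0.65 and 0.88. Of 24 tested Hox genes, which mark position along the body, 8 rose and 5 fell (median -0.01; 6 and 10, median -0.25, with RPKM-implied totals). Larger changes among them were Hoxc13 (1.82 ± 0.26, adjusted p = 5.6e-08) and Hoxd8 (-1.24 ± 0.24, adjusted p = 1.5e-05), both at low counts.

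Among the largest falls, Reg1 had no count in MΔGΔT and was at least 131-fold lower. The corneal proteoglycan keratocan (Kera) had 1 count against 468 in MEF (ratio 480, interval 85.7 to 19000) and Clec3b 1 against 351 (ratio 360, interval 64.2 to 14300). Dlk1, a regulator of fat cell formation, fell from 842 ± 29.4 to 14.4 ± 2.91 CPM, the angiotensin receptor Agtr2 from 370 ± 17.6 to 10.1 ± 4.29, and the stem and stromal cell antigen Cd34 from 43.1 ± 4.72 to 1.18 ± 0.297. Scara5, Akr1c14, Lrrn4 and Angptl1 fell (between -5.42 and -5.31). Dlk1 is one of the imprinted genes, expressed from 1 parental copy, among which are both promoters of growth before birth such as Igf2 and restrainers such as Cdkn1c and H19. Of 20 imprinted growth regulators, 14 fell and 1 rose (median -0.70). The growth factor gene Igf2 (chromosome 7, 142650766 to 142666816, mm10) stood at 3730, 3400, 3570, 4010 and 3430 CPM in the 5 MEF libraries and 652, 599, 643, 587 and 737 CPM in the 5 MΔGΔT libraries. The groups did not overlap (log2 fold change -2.50 ± 0.066, adjusted p = 6.9e-15). Its neighbour H19 fell from 4060 ± 314 to 526 ± 88.1 CPM (-2.95 ± 0.1, adjusted p = 7.6e-12), as did Mest, Plagl1 and Cdkn1c (-2.66, -2 and -3.70). Snrpn was the member that rose (0.80 ± 0.11, adjusted p = 1.2e-08).

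Genes of cell division fell together. Of 56 DNA replication genes, 49 fell and 1 rose (median -0.80), and of 60 mitosis genes 53 fell and 2 rose (median -0.82). The proliferation marker Mki67 (chromosome 7, 135689784 to 135716361, mm10) stood at 193, 168, 158, 172 and 167 CPM in the 5 MEF libraries and 74.7, 70.6, 58.3, 64.9 and 73.2 CPM in the 5 MΔGΔT libraries. Its highest MΔGΔT library lay below every MEF library (log2 fold change -1.33 ± 0.057, adjusted p = 5e-18). The replicative helicase subunits Mcm2, Mcm3, Mcm4 and Mcm5 fell (-1.10, -1.40, -1.05 and -1.36), as did the sliding clamp Pcna (-1.31) and the phosphatase Cdc25b (-1.69). The members that rose were Gins3 (0.64 ± 0.14, adjusted p = 6.4e-05), the centromeric histone Cenpa (1.04 ± 0.084, adjusted p = 5.4e-14) and Anln (0.14 ± 0.051, adjusted p = 0.0126). The call for Anln was lost with upper-quartile factors and with library totals (0.06 and 0.05) and without MEF replicate 2 (0.11), and its sign turned with RPKM-implied totals (-0.09).

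Of 43 cell cycle brakes, D cyclins and p53 targets, 23 rose and 12 fell (median 0.34; 20 and 19, median 0.10, with RPKM-implied totals). The kinase inhibitor Cdkn1a (chromosome 17, 29090976 to 29100727, mm10) stood at 146, 151, 154, 145 and 148 CPM in the 5 MEF libraries and 534, 544, 585, 560 and 543 CPM in the 5 MΔGΔT libraries. Every MΔGΔT library was higher by more than 3-fold than any MEF library (log2 fold change 1.89 ± 0.039, adjusted p = 1.2e-33). Cdkn2b, an inhibitor of Cdk4 and Cdk6, rose by 1.69 ± 0.05 (adjusted p = 3.3e-28), and the p53 targets Ccng1 and Eda2r by 1.63 ± 0.038 (adjusted p = 1.4e-31) and 1.52 ± 0.047 (adjusted p = 1e-27). Other inhibitors fell, Cdkn1c from 317 ± 28.1 to 24.5 ± 2.99 CPM (-3.70 ± 0.072, adjusted p = 3e-22) and Cdkn1b (-1.01). The kinase Cdk6 rose by 1.26 ± 0.037 (adjusted p = 3.1e-28) while its partner kinase Cdk4 fell (-0.82), as did cyclin Ccnd1 (-0.40). Of 33 apoptosis regulators, 12 were higher and 15 lower (7 and 18, median -0.26, with RPKM-implied totals), beside 36.2% and 36.1% over all features. Bcl2, which protects cells from death, and the death receptor Fas rose by 1.25 and 1.59, and the death promoters Bmf and Bcl2l11 fell (-1.74 and -1.15).

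Secreted signals and their receptors were reshaped, with more falls than rises in the WNT and growth factor lists. Of 53 genes of TGF-beta and BMP signalling, 23 rose and 28 fell (median -0.25). The BMP antagonist Grem1 (chromosome 2, 113746164 to 113758646, mm10) stood at 33.2, 35.3, 32.8, 30.2 and 32.9 CPM in the 5 MEF libraries and 450, 481, 547, 479 and 513 CPM in the 5 MΔGΔT libraries. The groups were far apart (log2 fold change 3.91 ± 0.051, adjusted p = 8.6e-40). The ligand Tgfb2, the activin subunit Inhba and the protease Bmp1 rose by 2.60, 1.94 and 1.5, while the receptor Tgfbr2 and the antagonist Chrdl1 fell (-1.34 and -4.17). Among WNT and Notch genes 33 of 51 were lower and 12 higher (median -0.64). The secreted WNT antagonists Sfrp1, Sfrp2 and Dkk2 and the Notch ligand Jag1 fell (-2.33, -1.82, -2.42 and -1.47), whereas the receptor Fzd6, the antagonist Wif1 and the feedback target Axin2 rose by 3.04, 4.73 and 1.76.

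Of 64 growth factor ligands and receptors, 37 fell and 20 rose (median -0.61). Igf1 fell from 504 ± 16.7 to 48.3 ± 1.71 CPM (-3.38 ± 0.046, adjusted p = 1.6e-39), while its receptor Igf1r rose by 1.43 ± 0.034 (adjusted p = 1.4e-31). The ligands Hbegf and Bdnf rose by 2.77 ± 0.058 (adjusted p = 2.5e-33) and 2.96 ± 0.067 (adjusted p = 4.1e-32), and the VEGF receptor Flt1 by 2.05 ± 0.044 (adjusted p = 1.4e-32). Axon guidance genes, which also steer migrating cells, had 33 of 45 lower and 8 higher (median -0.84). Ntn4, a netrin of basement membranes, rose by 4.41 ± 0.061 (adjusted p = 2.3e-39), and Sema5a and Robo2 fell (-2.17 and -1.92). Of 30 immediate early genes, 11 rose and 18 fell (median -0.32), with the nuclear receptor Nr4a3 up by 3.55 ± 0.13 (adjusted p = 4.3e-23) and Klf4 down (-1.49 ± 0.059, adjusted p = 6.6e-17).

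The MEF libraries held transcripts of macrophages, and these were far lower in MΔGΔT. All 46 tested macrophage and leukocyte markers fell (median -3.60), and their share of all counts went from 0.63 to 0.732% in MEF to 0.0686 to 0.0884% in MΔGΔT. The lysosomal glycoprotein Cd68 (chromosome 11, 69664213 to 69666153, mm10) stood at 162, 164, 164, 186 and 158 CPM in the 5 MEF libraries and 11.9, 13.3, 10.5, 11.3 and 11.8 CPM in the 5 MΔGΔT libraries. No marker of the list was higher in MΔGΔT, and Cd68 had a log2 fold change of -3.82 ± 0.11 (adjusted p = 5.5e-16). The surface proteins Cd180, Ms4a7 and Cd53 and the receptor Ptafr fell (-3.87, -4.43, -3.35 and -4.13). Of 51 genes of interferon response and antigen presentation, 43 fell and 2 rose (median -1.06), among them H2-D1 (-1.36 ± 0.047, adjusted p = 3.5e-25), Ifitm3 (-1.62 ± 0.054, adjusted p = 6.6e-24) and Irf5 (-2.41 ± 0.11, adjusted p = 2.3e-21). The members that rose were Irf3 (0.57 ± 0.065, adjusted p = 3.4e-10) and Stat3 (0.26 ± 0.033, adjusted p = 6.6e-09), the latter not called with RPKM-implied totals (0.02). Of 41 chemokines, cytokines and receptors, 33 fell and 6 rose (median -1.15). Csf1, the growth factor of macrophages, fell from 199 ± 10.4 to 77 ± 2.56 CPM (-1.37 ± 0.042, adjusted p = 1.2e-27), as did Cxcr4 and Cxcl16 (-2.86 and -2.93). The part of the macrophage transcripts in the falls of these lists was not tested.

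Prostaglandin genes went both ways, with more falls than rises. Of 18, 7 rose and 10 fell (median -0.22). The share that rose, 38.9%, was close to the 36.2% over all tested features. The share that fell was 55.6%, against 36.1% over all. The inducible cyclooxygenase Ptgs2 (chromosome 1, 150100031 to 150108227, mm10) stood at 16.5, 15.9, 14.8, 14.2 and 15.8 CPM in the 5 MEF libraries and 115, 108, 112, 120 and 111 CPM in the 5 MΔGΔT libraries. All MΔGΔT libraries lay above 100 CPM and all MEF libraries below 17 (log2 fold change 2.87 ± 0.058, adjusted p = 8e-34). Ptgs1, the phospholipase Pla2g4a and the prostacyclin synthase Ptgis rose by 2.12, 1.26 and 1.53, and the prostaglandin D synthases Hpgds and Ptgds fell (-3.79 and -6.50). The cytokine Lif rose from 6.5 ± 1.08 to 40.3 ± 2.61 CPM (2.65 ± 0.089, adjusted p = 2.7e-26).

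Markers of other lineages were looked at as a check of the cell state. Of 29 endoderm and liver markers only 7 had enough counts to be tested, of which 4 rose and 0 fell (4 and 1 with RPKM-implied totals). The endoderm factor Foxa2 (chromosome 2, 148042877 to 148046969, mm10) had 1 count over all MEF libraries and stood at 7.66, 6.65, 9.06, 8.69 and 6.1 CPM in the 5 MΔGΔT libraries (ratio 356, 95% interval 63.5 to 14100). The endocytic receptor Lrp2 went from 5.57 ± 0.489 to 109 ± 22.2 CPM (4.29 ± 0.2, adjusted p = 1.1e-10), with a wide spread in MΔGΔT of 88.3 to 139. Of 15 cartilage and bone markers, 9 rose and 5 fell. Aggrecan (Acan), the main proteoglycan of cartilage, rose from 0.173 ± 0.116 to 56.8 ± 4.8 CPM (8.27 ± 0.16, adjusted p = 2.3e-34), and Sox5 by 3.67 ± 0.097 (adjusted p = 7e-30), while the cartilage factor Sox9 fell (-1.40). Of 12 neural markers 9 fell and 3 rose, with the intermediate filament nestin (Nes), also made in young muscle, at 738 ± 29.6 CPM against 33.2 ± 1.4 (4.48 ± 0.045, adjusted p = 5.2e-44) and Gfap down (-2.99). Of 12 endothelial markers 7 fell, among them Vwf and Tek (-3.61 and -4.66), and 3 rose, among them Flt1 (2.05). The share of all counts held by the endothelial list was 0.0308 to 0.033% in MEF and 0.0576 to 0.0619% in MΔGΔT. Most of the MΔGΔT share was Flt1, at 519 CPM in replicate 3 and at most 483 CPM in the remaining MΔGΔT libraries. The share therefore does not follow the 7 markers that fell. Of 8 gonad and steroid markers 2 rose and 5 fell, and of 11 mesothelial and epithelial markers 5 rose and 5 fell. The mesothelial marker Msln rose by 4.17 ± 0.099 (adjusted p = 1.2e-26), whereas Upk3b of the same list fell (-3.03). Among the largest rises, the acetylcholine receptor subunit Chrnb3 had no count in MEF and stood at 17.4, 14.5, 17.2, 13.7 and 13.2 CPM in the 5 MΔGΔT libraries, at least 236-fold higher. Crh, the corticotropin-releasing hormone gene, and Fgf23, a phosphate hormone gene of bone, also had no count in MEF and were at least 95.9-fold and 39.3-fold higher; both were picked after their values were seen.

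**Figure D5:**
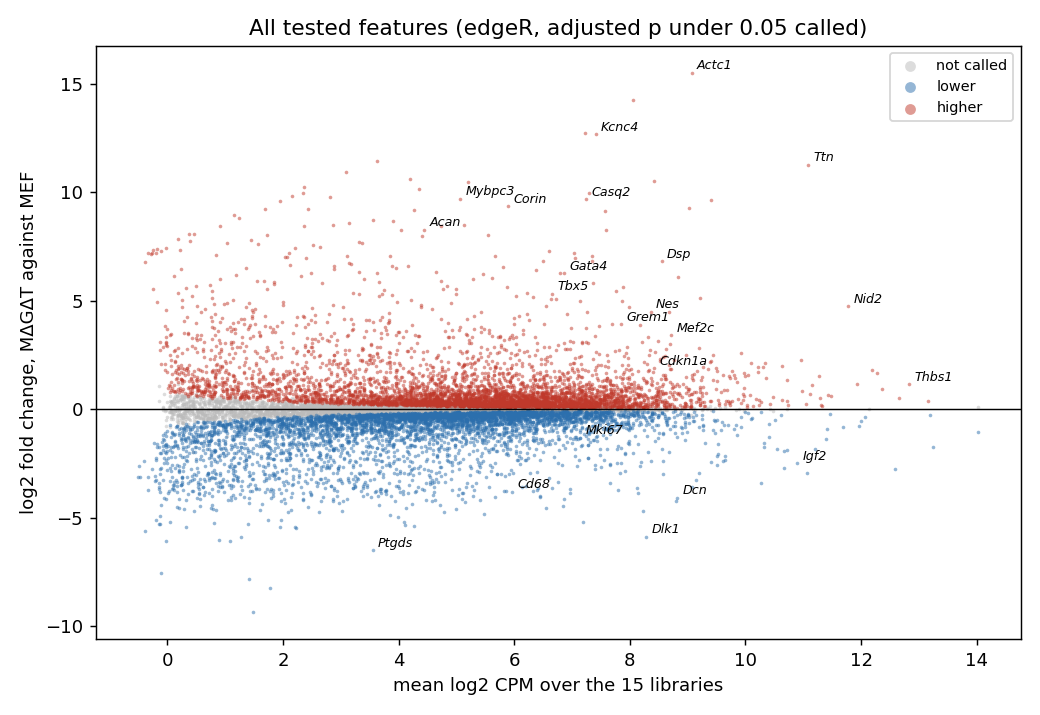
Log2 fold change (MΔGΔT against MEF) of all 13328 tested features against their mean log2 CPM over the 15 libraries, with called features in colour and 22 genes of the text labelled. Rises reach further from 0 than falls, up to 15.50 for Actc1, whose value depends on the prior count used by the fit.

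In a direct test against MGT, 15 named genes were looked at, with called differences in both directions. These 15 are a small selection and do not show how the sets differ over all genes. Between the sets, 7762 features (58.2%) were called, 4056 (30.4%) higher and 3706 (27.8%) lower in MΔGΔT. Ttn, Mybpc3, Myl1 and Nppa, all higher than in MEF, were higher in MΔGΔT than in MGT by 4.39, 5.19, 5.94 and 4.35 on the log2 scale, with adjusted p between 3.9e-35 and 3.9e-15. Dsp was lower than in MGT (difference -0.55, adjusted p = 1.6e-13), as were Tnni3 (-0.63, adjusted p = 8.1e-05), Tbx20 (-1.04, adjusted p = 2.7e-09), Hcn4 (-0.47, adjusted p = 0.00098) and Rbm24 (-0.48, adjusted p = 0.00094). For Trdn and Cd68 the difference was 0.04 ± 0.11 and 0.01 ± 0.15 (SE, adjusted p = 0.806 and 0.966). Thy1 was higher than in MGT by 1.17 (adjusted p = 3e-21) and Igf1r by 0.69 (adjusted p = 9.3e-21). Mki67 was lower than in MGT (difference -1.41, adjusted p = 2.8e-18), as was Mcm3 (-1.22, adjusted p = 2.7e-18).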

How the data were processed

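Total RNA depleted of ribosomal RNA was sequenced from directional libraries, per the labels' protocols. The deposited table lists 14091 gene symbols with 4 values per library: a raw count, a normalized expression signal equal to the count times a constant of the library, its log2 after adding 1, and RPKM made by the authors, per the file headers. Reads were placed on mm10, per the submitters' processing notes. For the aligner, the counter and the use of strand, nothing is stated in the labels or headers. Gene coordinates were taken from GENCODE M21 (mm10), which held 13744 of the symbols (97.5%). In the list, 21 symbols had become dates and held 0.26% of counts; they were left in the fit and not named.

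Counts were fitted in R 4.3.3 with edgeR 4.0.16, after its filter by group, with TMM factors and a robust quasi-likelihood fit over all 15 libraries, which share 1 estimate of the spread. The normalized signal and its log2 were used only to check the table. CPM are counts over the TMM-adjusted library total. Standard errors were derived from the log2 fold change and its F statistic. A ratio against 1 to 3 counts has a 95% counting interval, and a ratio against 0 counts is a lower bound at 3 counts over the group. These cover counting error only.

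The members and lists were chosen with earlier results of these data known. Named genes are the factor genes, a panel, the 15 largest rises and falls (mean log2 CPM above 1, groups not overlapping), the 10 largest gains and losses of CPM, up to 5 members per list by adjusted p and up to 4 against its majority, and the 10 muscle structure genes of highest RPKM. Arr3 and Mylk4 are named for their promoters. DESeq2 1.42.0, limma-voom 3.58.1, other scalings and filters, 10 libraries alone, a replicate block and leaving out each library in turn were the alternatives. RPKM-implied totals are the library totals by which the deposited counts and RPKM values are related. Some genes of the lists are not reported here by name.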

Additional observations from a re-analysis of the deposited data

Results flagged for a closer look

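Among the genes named, 27 of 462 groups of 5 libraries held a library that stood apart, its gap to the nearest other library being over 0.71 of the range of the group. Chance alone gives about 1 in 20 such groups. MEF replicate 1 was the library that stood apart in 8 of them, against at most 4 for any other library. In all 27 the 5 MEF and 5 MΔGΔT libraries did not overlap, as held for 58.5% of all tested features. Many named genes were picked by adjusted p or for groups that did not overlap, which favours this result.

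In MEF replicate 1, with the CPM of that library against the nearest other library of its group, these were Col1a1 (20900 against 24200), Eln (2380 against 2980), Fap (49.7 against 46.2), Fas (12.4 against 10.1), Mmp15 (8.09 against 6.8), Parvb (27.2 against 30.7), Ptgis (19.3 against 23.3) and Tjp1 (158 against 140). In MEF replicate 2 on the same scale these were Cxcr4 (34.7 against 31.3) and Pgam2 (1.72 against 1.09). In MEF replicate 4 on the same scale these were Cd68 (186 against 164), Eya1 (23.3 against 25.1) and Igf1 (475 against 506). In MEF replicate 5 on the same scale this was Ccnd1 (125 against 131). In MΔGΔT replicate 1 on the same scale these were Ckb (60.7 against 79.8) and Pcna (19.9 against 23.2). In MΔGΔT replicate 2 on the same scale these were Fhod3 (378 against 356) and Nt5e (271 against 285). In MΔGΔT replicate 3 on the same scale these were Cdc25b (7 against 8.37), Cdk6 (357 against 347), Flt1 (519 against 483) and Itga7 (511 against 483). In MΔGΔT replicate 4 on the same scale these were Cmya5 (96.1 against 88.6) and Itga11 (48.8 against 57.6). In MΔGΔT replicate 5 on the same scale these were Hoxc13 (3.27 against 2.72), Mest (50.9 against 42.5) and Trdn (8.39 against 7.55).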

How the results depend on the processing

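With RPKM-implied totals 2925 features were higher and 7184 lower, against 4820 and 4818, the median over all features moved by -0.24, and 20 rather than 26 of the 50 lists had more members higher than lower. Library totals moved the median by -0.10 and gave 3967 higher and 5796 lower, and upper-quartile factors gave 4063 and 5671. DESeq2 gave 4711 and 4672 and limma-voom 4819 and 4795. A filter at 1 CPM in 5 libraries gave 4822 and 4821, no filter 4988 and 5011, and the 10 libraries alone 4673 and 4761. Leaving out 1 library gave 4657 to 4821 higher and 4729 to 4831 lower, of which 1417 to 1449 and 1651 to 1717 by at least 2-fold, and 26 to 27 lists with a majority higher. Of the 245 genes named, only Anln changed sign (-0.09 with RPKM-implied totals), and calls were lost only for Anln, Hand2 and Stat3, as given above. Against MGT, the differences that were not called changed sign, to -0.16 for Cd68 and -0.14 for Trdn with library totals and to -0.25 for Cd68 and -0.22 for Trdn with RPKM-implied totals. Values of genes with few counts in a group moved by more than 1.5-fold without 1 library: Actc1 to 16.95 without MEF replicate 3, Arr3 to 8.78 and Myl7 to 15.69 without MEF replicate 2, Foxa2 to 9.26 without MEF replicate 5, Mb to 9.93 and Myh6 to 14.89 without MEF replicate 1, Xirp2 to 12.08 without MEF replicate 4, Clec3b to -9.23 without MΔGΔT replicate 2 and Kera to -9.65 without MΔGΔT replicate 4. The cause of the scaling differences was not tested.

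Same-numbered libraries of both groups did not deviate together (r = 0.07, 0.04, 0.1, -0.09 and -0.1 across genes for numbers 1 to 5, own number the best match in 3 of 5), so the numbers were not taken as pairs. A replicate block gave 4794 higher and 4799 lower.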
